A study of Mus musculus with 2 samples.

Results

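The MHC class I antigen presentation pathway was followed through 9 genes in RNA sequencing of mouse primary chondrocytes. The members were chosen by name for their textbook roles, and all 9 were found among the 22156 genes of the table. They are the class I heavy chains H2-K1 and H2-D1, the light chain B2m, the peptide transporter genes Tap1 and Tap2, the loading chaperone Tapbp, the immunoproteasome subunits Psmb8 and Psmb9, and the transactivator Nlrc5. The study compared chondrocytes that lack Myl3, a myosin light chain, with control chondrocytes, with 1 library per genotype.

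The Myl3-KO library came from Col2a1-Cre; Myl3 flox/flox mice, in which a Cre recombinase driven by the Col2a1 promoter deletes floxed Myl3 in Col2a1-expressing cells. The control library came from mice that the study's methods describe as Myl3 flox/flox littermates and the sample labels call WT. Both groups were on the C57BL/6J background. The cells were taken from the rib cartilage of newborn mice, aged 24 to 72 h in the methods, which also name articular cartilage. They grew as an untreated monolayer in medium with 10% serum. The number of animals behind each library is not given in the sources used here. Because each genotype is 1 library, no difference below has a replicate check, and every test compares the libraries and not the genotypes.

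Nearly every nucleated cell shows fragments of its own proteins on class I molecules, where CD8+ T cells and natural killer cells survey them. Proteasomes cut the proteins, the transporter TAP carries the peptides into the endoplasmic reticulum, and tapasin, encoded by Tapbp, holds empty heavy chain and β2-microglobulin dimers at TAP until a peptide fits. Interferons raise the whole pathway, in part through IRF1 and the transactivator NLRC5, and exchange the constitutive catalytic subunits of the proteasome for inducible ones. Resting mesenchymal cells, chondrocytes among them, generally carry class I but little of the inducible machinery.

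The expected count, the estimated number of reads per gene, totalled 17612434.91 for the control library and 13477976.98 for the Myl3-KO library. A floor of 3 counts stood at 0.170 CPM in the control library, and at 0.223 CPM in the Myl3-KO library, with CPM the counts per 1000000 counts of a library. Myl3 itself had 0 counts in both libraries and gave no check of the labels. Of 15 chondrocyte markers, 6 had enough counts to be tested, and Acan, Cnmd, Hapln1, Matn1 and Matn3 were at 0 in both libraries. Col2a1, the collagen of cartilage, had 30 and 27 counts. Of the 6 tested, 1 was higher in Myl3-KO, the cartilage collagen gene Col11a2 (293 and 395 counts, log2 ratio 0.82), and 1 was lower, the chondrocyte regulator Sox9 (866 and 480 counts, log2 ratio -0.47), with a median log2 ratio of 0.41. The log2 ratios of Col9a3, Chad and Col11a1, which did not pass the test, were 0.68, 0.58 and 0.10. The 10 fibroblast markers summed to 17152.5 CPM and 19408 CPM, of which Col1a2, a collagen gene of fibroblasts and bone, gave 12017 and 14039 CPM. They moved in both directions, with 5 of the 9 tested higher and 3 lower. At 1.5-fold, Fbn1 (log2 ratio 0.67) and Pdgfra (0.61) were called higher and the proteoglycan genes Dcn (-1.64) and Lum (-1.36) lower. In bulk RNA, fewer cells of a type and less RNA per cell cannot be told apart.

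In both libraries the heavy and light chains, tapasin and the transporter were expressed, whereas the immunoproteasome subunits and the transactivator were low. B2m was the most abundant member by far, at 428.87 FPKM in the control and 425.07 FPKM in Myl3-KO (fragments per kilobase of transcript, scaled to the library, a level that allows genes of different length to be compared). It stood at percentile 99.0 of the genes with a count in either library, in both libraries. Tapbp followed at 53.78 and 58.61 FPKM.

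H2-K1 had 32.99 FPKM in the control and 35.3 FPKM in Myl3-KO, and H2-D1 had 32.88 and 41.72 FPKM. The 95% intervals of the heavy chain levels, exact Poisson intervals that cover counting error only, overlapped in the control and did not overlap in Myl3-KO. The B2m level was 6.51 times the summed level of H2-K1 and H2-D1 in the control and 5.52 times in Myl3-KO.

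The transporter was present at an intermediate level. Tap2 had 7.83 and 11.32 FPKM and Tap1 had 4.55 and 6.65 FPKM, and Tap2 was 1.72 times Tap1 in the control and 1.70 times in Myl3-KO. Psmb9 had 1.86 and 2.41 FPKM. Nlrc5 had 0.19 and 0.24 FPKM and Psmb8 had 0.14 and 0.05 FPKM, and these last neighbours did not differ beyond their intervals in either library. Nlrc5 rests on 17 and 18 counts and Psmb8 on 4 and 1 counts, so both lay close to the limit of detection.

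**Figure D1:**
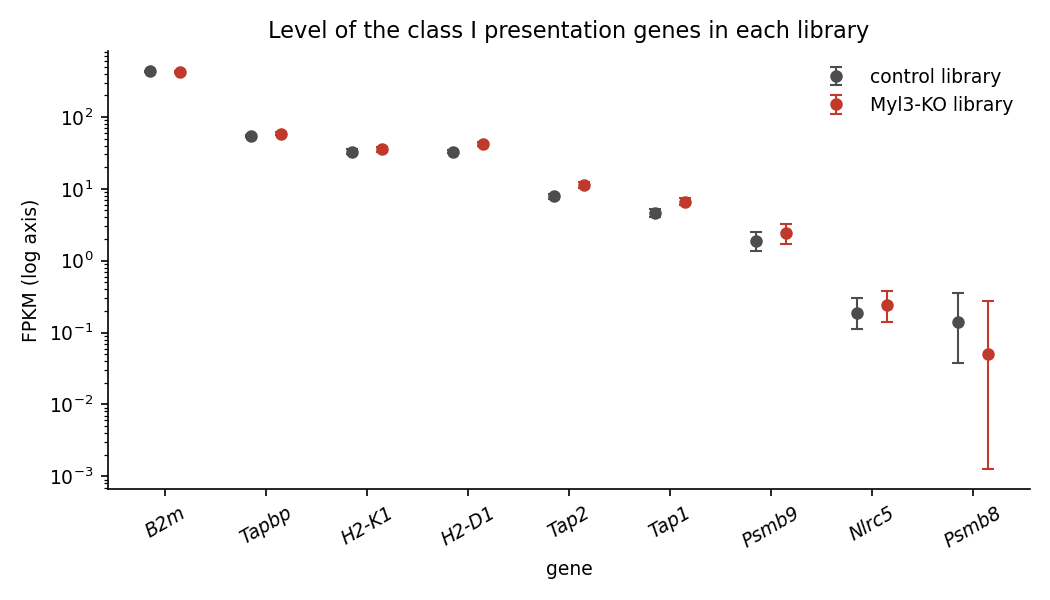
FPKM of the 9 members on a log axis, with the control library in grey, the Myl3-KO library in red and bars for the 95% counting interval, 1 library per genotype. The order from B2m at 428.87 FPKM down to Psmb8 at 0.14 FPKM in the control is the same in Myl3-KO apart from H2-K1 and H2-D1.

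Markers of blood cells were low in both libraries. Of 21 rows for leukocyte markers, 13 were at 0 in both libraries, among them Cd3e, Adgre1 and Itgam. Ptprc, which encodes the pan-leukocyte antigen CD45, had 1 count in the control and 0 in Myl3-KO. Enough counts to be tested were found for 4 myeloid markers, with 50 and 30 for Cd14, 18 and 16 for Cd68, 14.04 and 12 for Csf1r and 6 and 5 for Lyz2. Too low to be tested were Itgax with 2 and 3 counts, Cd79a with 3 and 1 and Cd8a with 1 and 0. The summed level of the list was 5.40 CPM and 4.97 CPM, and 0 of its genes passed the test. The part of such cells in the levels of the members was not tested. Of 8 endothelial markers, Cdh5, Emcn and Tie1 were at 0 in both libraries, and the summed level was 1.70 and 3.41 CPM.

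Between the libraries, the transporter genes and H2-D1 were higher in Myl3-KO by a modest factor, Tapbp was slightly higher, and B2m was level. In all, 4 of the 8 members tested were higher in Myl3-KO beyond counting error and 0 were lower, where beyond counting error means an adjusted p under 0.05 in a two-sided exact binomial test. Among all 12431 genes tested, 18.6% were higher and 16.8% lower by the same rule. With a difference of at least 1.5-fold also required, 0 members were called, where 3.14% of the genes tested were called higher and 0.925% lower. With a lower limit of 0.32 on the log2 scale, Tap1 and Tap2 were called higher, against 8.36% of all genes tested. With a spread between cultures assumed, as a coefficient of variation of 0.1 in edgeR's exact test, 0 members passed, and neither did any gene of the pathway lists below. Over the 9 members the median log2 ratio, Myl3-KO to control, was 0.28, and over the genes tested it was 0.02. The member median is the ratio of Psmb9, which did not pass the test, and the 9 include Psmb8, which was not tested. Of the 9 members, 7 had a ratio above 0, as did 52.7% of the genes tested. Among those 7, H2-K1, Psmb9 and Nlrc5 did not pass the test.

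**Figure D2:**
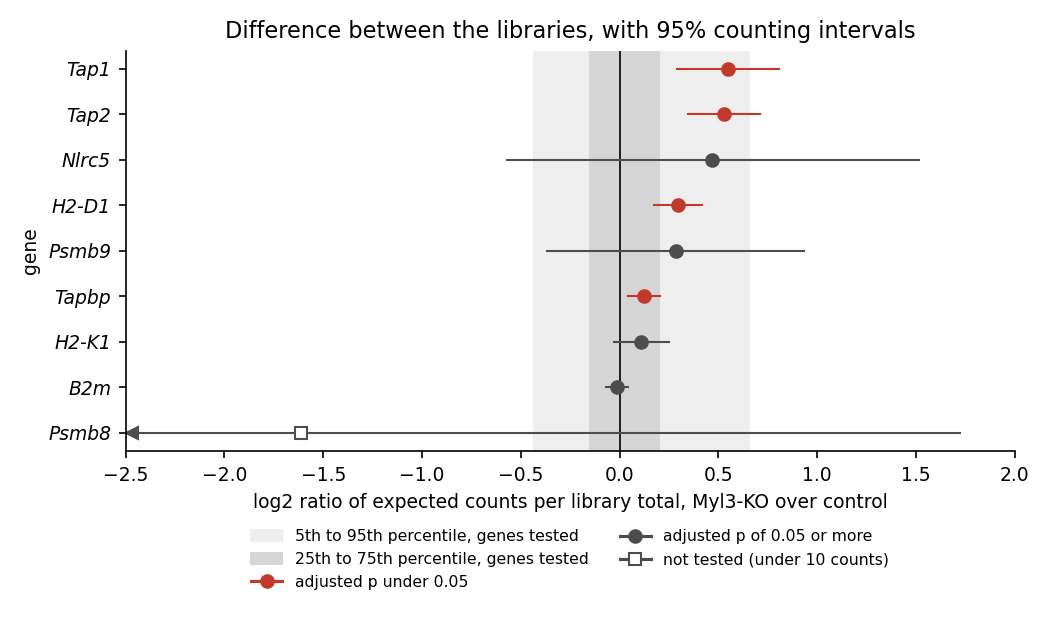
Log2 ratio of expected counts per library total, Myl3-KO over control, with 95% counting intervals for the 9 members, and grey bands for the middle of all genes tested. Tap1 and Tap2 lie highest at 0.55 and 0.53, B2m lies at -0.01, and the interval of Psmb8 runs past the left edge to -7.24.

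The pair that forms the TAP transporter showed the largest differences that passed the test. Tap1 had 236.7 expected counts in the control and 264.74 in the smaller Myl3-KO library, a log2 ratio of 0.55 with a 95% interval of 0.29 to 0.81 (adjusted p = 0.000154, exact binomial test). Tap2 had 474.95 and 524.92 counts, a log2 ratio of 0.53 with an interval of 0.35 to 0.71 (adjusted p = 9.09e-08, exact binomial test). The ratio of Tap1 to Tap2 did not differ detectably between the libraries, with an odds ratio of 1.01 and an interval of 0.81 to 1.26. Tap1 stood at percentile 93.1 and Tap2 at percentile 92.6 of the log2 ratios of all genes tested. Exons of Tap2 overlap those of Gm15821, a row with 9.05 and 15.08 counts, and the counting could have divided reads between them.

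Of the heavy chains, H2-D1 was higher beyond counting error and H2-K1 did not pass the test. H2-D1 had 1163.49 and 1092 counts, a log2 ratio of 0.29 with an interval of 0.17 to 0.42 (adjusted p = 1.23e-05, exact binomial test). H2-K1 had 922.51 and 762 counts, a log2 ratio of 0.11 with an interval of -0.03 to 0.25 (adjusted p = 0.235, exact binomial test). The odds ratio of H2-D1 to H2-K1 between the libraries was 1.14 with an interval of 1.0001 to 1.29, so the interval of their relative difference began at the value of no difference. Their sequences overlap: 13.8% of the 31-base words in H2-D1 transcripts also occur in H2-K1 transcripts, and both share words with H2-Q genes. A division of reads among these genes is therefore uncertain. Summed over the 20 class I genes of the H2 family in the table, which sets aside the division among them, there were 3072 and 2714 counts, a log2 ratio of 0.21 with an interval of 0.13 to 0.28.

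The light chain, which every class I molecule needs, was measured most precisely and was level. B2m had 6496 and 4927 counts, a log2 ratio of -0.01 with an interval of -0.07 to 0.04 (adjusted p = 0.777, exact binomial test). Relative to B2m, H2-D1 was higher in Myl3-KO with an odds ratio of 1.24 and an interval of 1.13 to 1.36. For H2-K1 relative to B2m the odds ratio was 1.09 with an interval of 0.98 to 1.21. B2m shares no 31-base word with another gene, so its count is free of that doubt.

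Tapasin was higher by a small margin. Tapbp had 2741 and 2286 counts, a log2 ratio of 0.12 with an interval of 0.04 to 0.20 (adjusted p = 0.00953, exact binomial test). This 1.09-fold difference was detectable because of the depth of the gene, and the ratio stood at percentile 66.0 of the genes tested. The exons of Tapbp overlap those of Zbtb22, with 302 counts in each library, so reads there could have been assigned to either gene.

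The immunoproteasome subunits Psmb9 and Psmb8 and the transactivator Nlrc5 could not be told apart between the libraries. Psmb9, a catalytic subunit of the immunoproteasome, had 44.3 and 41.26 counts, a log2 ratio of 0.28 with an interval of -0.37 to 0.93 (adjusted p = 0.551, exact binomial test). Nlrc5 had a log2 ratio of 0.47 with an interval of -0.57 to 1.51 (adjusted p = 0.562, exact binomial test). Psmb8 fell under the minimum of 10 counts over both libraries and was not tested, and its log2 ratio of -1.61 has an interval of -7.24 to 1.72. Each of these intervals runs from a lower level in Myl3-KO to a clearly higher one, so a difference was not detectable at this depth. Psmb9 and Tap1 lie head to head with overlapping exons, and both have counts that are not whole, so reads of the shared stretch could have been split. Their ratio to each other did not differ detectably, with an odds ratio of 1.20 and an interval of 0.74 to 1.95.

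For 2 of the 3 catalytic pairs of the proteasome, nearly all of the transcript level was of the constitutive gene. Psmb5, the constitutive counterpart of Psmb8, had 159.33 and 135.16 FPKM, so that Psmb8 made up 0.0878% of the summed level of this pair in the control and 0.0370% in Myl3-KO. Psmb6, the counterpart of Psmb9, had 275.85 and 244.34 FPKM, and Psmb9 made up 0.670% and 0.977% of that pair. The inducible subunit Psmb10 was the exception in level, at 17.71 and 20.49 FPKM beside 111.59 and 84.62 FPKM for its counterpart Psmb7, a share of 13.7% and 19.5%. Psmb10 relative to Psmb7 was higher in Myl3-KO, with an odds ratio of 1.53 and an interval of 1.30 to 1.79. Most of that difference was on the Psmb7 side: Psmb7 had a log2 ratio of -0.40 with an interval of -0.50 to -0.30, and Psmb10 had 0.21 with an interval of 0.00 to 0.42 (adjusted p = 0.109, exact binomial test).

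**Figure D3:**
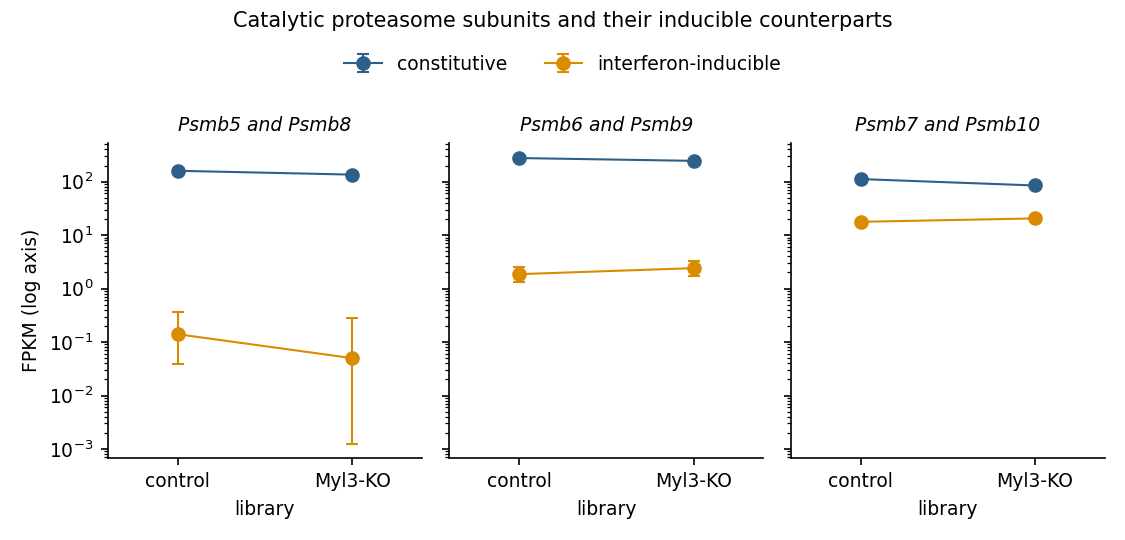
FPKM on a log axis of each constitutive catalytic subunit (blue) and its interferon-inducible counterpart (orange) in the control and Myl3-KO libraries, with 95% counting intervals. Psmb8 and Psmb9 stay below 1% of their pairs, whereas Psmb10 reaches 13.7% and 19.5%.

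Most of the other proteasome genes listed were lower in Myl3-KO. All 3 constitutive catalytic genes passed the test as lower, with log2 ratios of -0.24 for Psmb5, -0.17 for Psmb6 and -0.40 for Psmb7. Of 18 other genes for the 20S core, its assembly factors and its activators, 15 were lower and 1, the activator gene Psme4, was higher (log2 ratio 0.10, a call lost under both other scalings), with a median of -0.22. Those with the most counts were Psma4 at -0.23, Psmb1 at -0.23 and Psmb3 at -0.36, all subunits of the core. The interferon-inducible activator PA28 did not move as a unit: Psme1 had a log2 ratio of 0.22 (adjusted p = 7.38e-05, exact binomial test) and Psme2 had -0.05 (adjusted p = 0.493, exact binomial test).

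Genes that serve folding and trimming in the endoplasmic reticulum were mostly at or slightly below the control. Of 8 tested, 2 were higher and 4 lower, with a median log2 ratio of -0.09. The lower genes were the chaperones Calr (-0.10) and Canx (-0.19), the disulfide isomerase Pdia3 (-0.09) and Bcap31 (-0.21), a membrane protein of the endoplasmic reticulum that takes part in class I export. Calreticulin and ERp57, the products of Calr and Pdia3, sit with TAP and tapasin in the peptide-loading complex, and both were lower while the TAP genes were higher. The higher genes were Tapbpl, which encodes the tapasin relative TAPBPR (log2 ratio 0.43, interval 0.08 to 0.77), and the folding sensor Uggt1 (0.09), and both lost the call under TMM or DESeq2 scaling. The aminopeptidase gene Erap1, which trims peptides to the length class I accepts, had a log2 count ratio of -0.06 with an interval of -0.22 to 0.10, although its FPKM went from 15.07 to 10.85.

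Among 29 other class I and class I-like genes, 23 were in the table, 11 were tested, 2 were higher and 0 lower, with a median log2 ratio of 0.36. That median is the ratio of H2-T23 (51 and 50 counts, interval -0.23 to 0.95), 1 of the 9 genes that did not pass the test. H2-Q4, a nonclassical class I heavy chain, had 128 and 175 counts, a log2 ratio of 0.84 with an interval of 0.50 to 1.18 (adjusted p = 5.12e-06, exact binomial test). It was the only gene of this list called at 1.5-fold. Cd1d1, which presents lipids to natural killer T cells, had a log2 ratio of 0.49 with an interval of 0.36 to 0.62. H2-T22 and the neonatal Fc receptor gene Fcgrt, the next most abundant, had log2 ratios of 0.02 and 0.06. Among the class II genes, 5 of 11 were tested and 0 passed the test, H2-Aa and 3 others were at 0 in both libraries. The most abundant, H2-DMb1, H2-Ab1 and H2-DMa, had log2 ratios of -0.18, 0.23 and 0.39, and the class II transactivator Ciita had 7 and 5 counts.

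The promoter factors of the pathway gave no common direction, whereas the interferon receptor and signalling genes that passed the test were all higher. Of 12 factors that bind class I promoters, 1 was higher (Nfkb1, log2 ratio 0.16, a call lost under TMM scaling), 2 were lower (Nfyb at -0.20 and Rfxap at -0.25) and 9 did not pass the test, with a median of 0.05. Rela and Creb1, also among the most abundant, had 0.14 and -0.11. Of 11 interferon receptor and signalling genes, 5 were higher and 0 lower, with a median of 0.19. They were Socs1, a feedback inhibitor of interferon signalling (51 and 64 counts, log2 ratio 0.71, interval 0.16 to 1.27), Stat2 (0.48), Tyk2 (0.37), Ifnar1 (0.28) and Ifngr2 (0.20). Jak1 and Ifngr1, also among the most abundant of this list, had log2 ratios of 0.04 and -0.02. Irf1, a factor that interferon induces and that binds class I promoters, had a log2 ratio of 0.10 with an interval of -0.06 to 0.25.

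**Figure D4:**
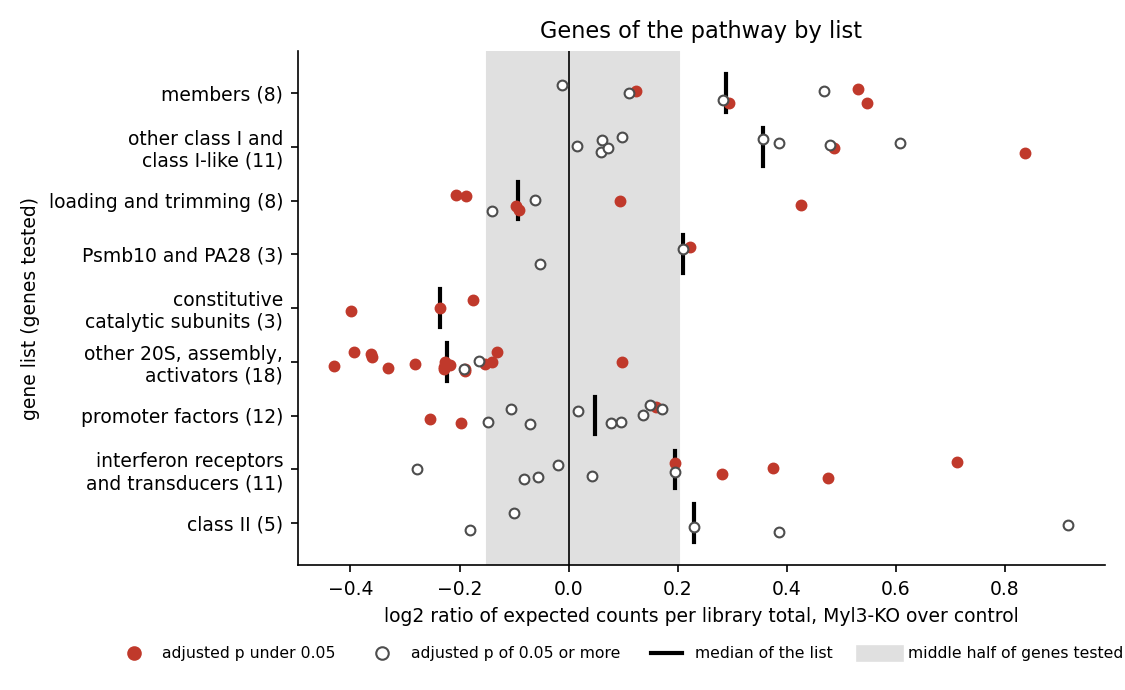
Log2 ratio of each gene tested, by list, with filled red points for an adjusted p under 0.05, a black bar for the median of the list and a grey band for the middle of all genes tested. The members and other class I genes have medians of about 0.29 and 0.36 over genes tested, and 9 of the 11 other class I genes did not pass the test. Among the proteasome lists, the constitutive catalytic subunits have a median of -0.24 and the other core, assembly and activator genes -0.22. The list of Psmb10 and PA28 has a median of 0.21.

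The length of a gene moved with its ratio across the table, and this bears on the contrast between the transporter and the proteasome. With 12294 genes sorted into 5 equal classes by the length that count and FPKM imply, the median log2 ratio was -0.08 in the shortest class, up to 1.57 kb, and 0.08 in the longest, from 4.53 kb. In the shortest class 6.55% of genes were higher and 26.3% lower beyond counting error, and in the longest 30.8% were higher and 10.6% lower. Tap1 (2.95 kb) and Tap2 (3.44 kb) lay in classes with medians of 0.02 and 0.05, leaving differences of 0.53 and 0.48. H2-D1 (2.01 kb) lay 0.30 above its class, Tapbp 0.10 above and B2m, a short gene, 0.07 above. The 18 other core, assembly and activator genes of the proteasome had a median length of 1.05 kb and a median difference of -0.14 from their classes, where the unadjusted median was -0.22. The part of gene length in these ratios was not tested further.

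By position, 7 members lie on mouse chromosome 17 in the H2 complex, given here on GRCm38 with GENCODE M21. Psmb9 (17:34181987-34187764, minus strand), Tap1 (17:34187553-34197225), Psmb8 (17:34197721-34201454) and Tap2 (17:34203527-34216321) form a block, with Tapbp (17:33915899-33929292) and H2-K1 (17:33996017-34000347, minus strand) on one side and H2-D1 (17:35262730-35267499) on the other. B2m lies on chromosome 2 from 122147686 to 122153083 and Nlrc5 on chromosome 8 from 94434356 to 94527272. All are protein coding.

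Over the 1.35 Mb from Tapbp to H2-D1, a stretch chosen after values had been seen, 17 of 57 genes tested were higher in Myl3-KO and 3 lower, where 18.6% of all genes tested were higher and 16.8% lower. Leaving out the members, 13 of 51 were higher and 3 lower, with a median log2 ratio of 0.11. Tap1 and Tap2 lay above that median. Other higher genes of the stretch included Col11a2, a fibrillar collagen gene, with a log2 ratio of 0.82, and Ring1, a Polycomb gene, with 0.57. Both were named after their values were seen.

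**Figure D5:**
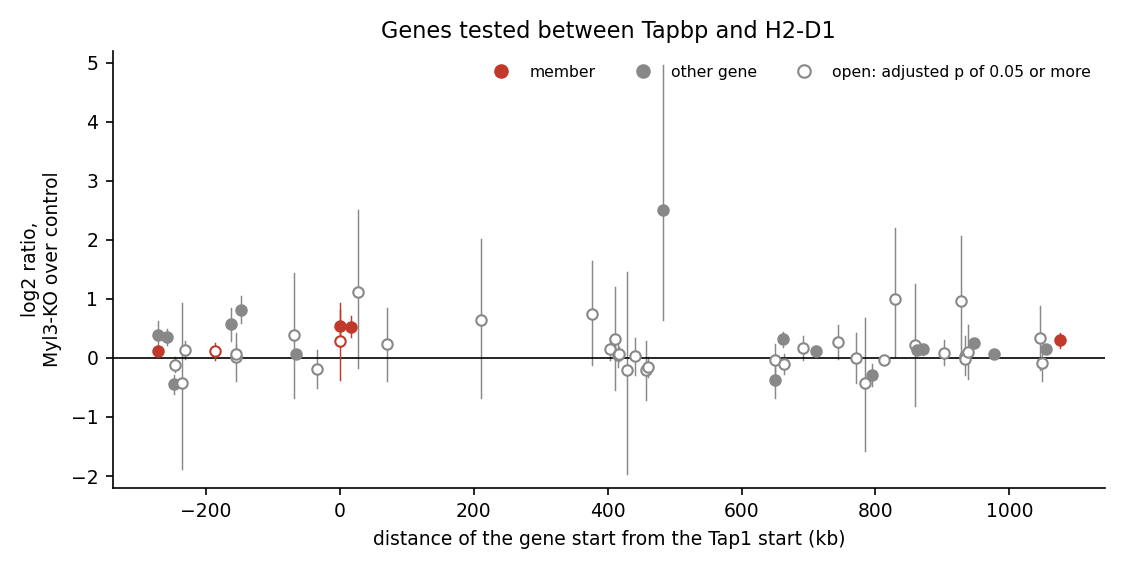
Log2 ratio with 95% counting interval of the 57 genes tested from Tapbp to H2-D1 against the distance of the gene start from the Tap1 start in kilobases, members in red and open points for an adjusted p of 0.05 or more. Of these genes 17 are higher in Myl3-KO and 3 lower, and members and other genes share the range.

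The promoters of some members share motifs at the level of sequence, and a link between motifs and ratios was not tested. Class I promoters are known to carry an NF-κB site in enhancer A, an interferon response element, and a downstream module that ends in a CRE-like X2 box and a reversed CCAAT box, the Y box, on which NLRC5 assembles. RefSeq promoter entries on GRCm38.p6 were found for 7 members, all but Tap2 and Nlrc5. In the 250 bases before each start, 4 motifs were searched on both strands. They were CCAAT for the box that NF-Y binds, TGACG for the core of a CRE-like site, AANNGAAA for the interferon response core and GGANNNNCC for the NF-κB core. They occur in 33.8%, 17.8%, 21.3% and 42.3% of the 32851 promoter entries, and all 4 together in 0.438%. H2-K1, H2-D1 and B2m held all 4. Tap1 and Psmb9 held the CCAAT box and the CRE-like core, Tapbp held the CCAAT box only, and Psmb8 held none of these letters. The RefSeq starts used for Tapbp (33919478), Psmb8 (34198195), Psmb9 (34187330) and H2-D1 (35263094) lie inside their GENCODE genes. Bases before the outermost GENCODE starts of these genes were not searched.

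The proximal promoters of H2-K1 (chr17:34000348-34000497, minus strand) and B2m (chr2:122147537-122147685, plus strand) are shown 5′ to 3′ because one encodes a heavy chain and the other the light chain that pairs with it. Capitals mark the motif matches, which run in the same order in H2-K1 as NF-κB core, interferon response core, CRE-like core and reversed CCAAT, and in B2m with the interferon response core first. The NF-κB matches of H2-K1 overlap each other.
H2-K1: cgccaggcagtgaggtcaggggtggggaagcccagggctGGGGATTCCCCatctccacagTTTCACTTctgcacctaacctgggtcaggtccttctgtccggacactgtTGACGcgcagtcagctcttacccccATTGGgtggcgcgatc
B2m: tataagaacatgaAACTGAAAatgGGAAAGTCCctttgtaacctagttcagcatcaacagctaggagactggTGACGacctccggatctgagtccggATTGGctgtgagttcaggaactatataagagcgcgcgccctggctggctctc

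The distance between the CRE-like core and the reversed CCAAT box was the same in both heavy chain genes and in B2m. The 30-base windows below start at the CRE-like core, with both boxes in capitals, and Tap1 is shown because its ratio was the largest of the members although its window lacks the second box. They lie at chr17:34000359-34000388 (minus strand) for H2-K1, chr17:35262993-35263022 for H2-D1, chr2:122147609-122147638 for B2m and chr17:34187470-34187499 for Tap1.
H2-K1: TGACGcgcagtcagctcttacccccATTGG
H2-D1: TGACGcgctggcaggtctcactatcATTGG
B2m: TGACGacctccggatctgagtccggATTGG
Tap1: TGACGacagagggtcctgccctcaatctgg

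With 20 bases between the boxes in this orientation, the arrangement was found in 30 of the 32851 promoter entries (0.0913%), from 26 genes, after the spacing had been read from these members. H2-M3, another class I gene that holds it, had a log2 ratio of 0.07 with an interval of -0.25 to 0.39. Of the members with this arrangement, H2-D1 had a log2 ratio of 0.29, H2-K1 of 0.11 and B2m of -0.01. Apart from H2-M3, the ratios of the other genes that hold it were not examined. A link between arrangement and ratio was not tested. The H2-K1 and H2-D1 promoters also share an unbroken run of 47 bases upstream of the module. Tap1 and Psmb9 are read in opposite directions from starts 226 bases apart, so that their matches lie in the same stretch of DNA. A match is a description of letters in a window and says nothing about binding in these cells.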

How the data were processed

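RNA sequencing of primary chondrocytes was analysed, with 1 control and 1 Myl3-KO library. The authors deposited an expected count and an FPKM value per gene, and 1438 control and 1388 Myl3-KO counts were not whole numbers. The aligner, the counter and the strand setting are not given in the sources used here, and the submitters' processing notes name GRCm38 and mm10 as builds. Of the table's value columns, the one headed NC was read as the control because the other is headed KO. The pathway and ontology columns of the table were not used.

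Log2 ratios compared expected counts divided by library totals. Counts were rounded for a two-sided exact binomial test of the 12431 genes whose counts in both libraries summed to 10 or more. Benjamini-Hochberg adjustment ran over all of them. The 95% intervals of the log2 ratios were Clopper-Pearson intervals of the rounded counts, and those of FPKM levels were exact Poisson intervals. The design allows no quasi-likelihood or DESeq2 test, because no residual degrees of freedom remain. Test and intervals cover counting error only. Odds ratios of gene pairs carry exact 95% intervals. The test was tried on simulated data. The results of 2 genes of the lists are not reported here.

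All members are named, together with genes of each pathway list called at 1.5-fold or among the 3 with the most counts. Proteasome counterparts and some of the detected markers are named too. Where 5 or fewer genes of a list passed the test, these were named after their values were seen. The members and lists were chosen with earlier results of these data known. Positions came from GENCODE M21, which held 21881 of 21910 Ensembl identifiers, and promoters from RefSeq (GRCm38.p6). Alternatives were TMM and DESeq2 scaling, other filters, folds and added values, FPKM ratios, and edgeR's exact test with a preset spread. An allowance for gene length was added after seeing the data. The tools were edgeR 4.0.16, DESeq2 1.42.0, R 4.3.3, Python 3.11.15 and numpy 2.4.6.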

Additional observations from a re-analysis of the deposited data

How the results depend on the processing

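The number of members higher beyond counting error stayed at 4 under TMM factors, DESeq2 size factors, 1 added count, no filter and a minimum of 10 counts in each library. It went to 0 with edgeR's exact test at a preset coefficient of variation of 0.1, 0.2 or 0.4, which treats the libraries as samples that vary, so that the spread between cultures, which these libraries cannot show, decides the calls. At 0.1, 41 genes of the table were higher and 20 lower, where counting error alone gave 2307 and 2090. The number of members called at 1.5-fold was 0 under each of these settings and at folds of 2 and 4, and 2 at the lower limit of 0.32 on the log2 scale. Tapbp lay near the limit under both scalings, with adjusted p of 0.0497 and 0.0422 in the exact binomial test. The median log2 ratio of the members ranged from 0.23 to 0.34 and did not change direction. Both scalings shifted every log2 ratio by less than 0.1, namely by -0.03 and -0.02. The higher loading and trimming genes went from 2 to 0 under both scalings, and the 15 lower core, assembly and activator genes of the proteasome to 17, an alternative added after seeing the data. No member reversed direction after passing the test. No replicate could be left out, because each genotype is 1 library. No paired analysis was possible because the groups share fewer than 2 replicate numbers.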
